A study of Mus musculus with 8 samples.

Results

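The epithelial sodium channel and the genes through which aldosterone acts on it were examined in the kidneys of male mice homozygous for a missense allele of *Scube3*. The set holds 9 genes, namely the channel subunit genes *Scnn1a*, *Scnn1b* and *Scnn1g*, the mineralocorticoid receptor gene *Nr3c2*, *Hsd11b2*, *Sgk1*, *Nedd4l*, *Fxyd4* and *Tsc22d3*. Members were found by gene symbol in the annotation of the array's probes. Of the 9 genes, 8 had a probe and *Nr3c2* had none, so the receptor of aldosterone was not measured here. The 8 genes were covered by 10 of the 25697 probes, with a pair of probes each for *Fxyd4* and *Tsc22d3*, and all 10 were above background on all 8 arrays.

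The arrays were run to compare kidney transcripts in a line with raised urinary excretion of water and several electrolytes relative to body mass. That excretion was measured in mice of both sexes, at a later age than that of the arrays. Kidney samples were taken at 29 wk of age from 4 wild type and 4 homozygous mutant males, with 1 array (Illumina Mouse Ref8 v2.0) per mouse. Both groups are of strain C3HeB/FeJ. The mutants carry on both chromosomes a recessive, chemically (ENU) induced base change in *Scube3* that exchanges an asparagine for a lysine. The allele is present in every cell of the body, comes from a single mutant line, and was not restricted to the kidney. Neither group was treated with a hormone, a diuretic or a salt diet as far as the labels say.

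In the connecting tubule and collecting duct, sodium enters principal cells from the urine through the epithelial sodium channel, which is built from an alpha, a beta and a gamma subunit, and leaves towards the blood through the sodium pump. Aldosterone binds the mineralocorticoid receptor, which enters the nucleus and induces *Sgk1* and other genes; the kinase SGK1 then restrains NEDD4L, a ubiquitin ligase that removes the channel from the cell surface. Corticosterone, the main glucocorticoid of mice, binds the same receptor, and the enzyme made from *Hsd11b2* inactivates it inside these cells.

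The mineralocorticoid and glucocorticoid receptors bind DNA at an inverted repeat of a hexamer. The perfect form searched for here was AGAACA, any 3 bases, and then TGTTCT. Promoter sequences of RefSeq (GRCm38.p6), matched by symbol, were searched for 6 of the 9 members. *Scnn1a* and *Hsd11b2* had no window, and *Nedd4l* was left out of the search, so the member counts below do not cover these genes. The search took in 13 windows of 250 bases upstream of an annotated start site, since some genes have several start sites. Both strands were searched. A perfect repeat was found in 1 of these 13 windows, upstream of an *Sgk1* start site, and in 3 of all 32851 windows of this length (0.00913%). The other windows belong to *Acnat2* and *Gm35041*. The repeat lies from base -189 to base -175 of that start site, which is 1 of 6 annotated for *Sgk1*, and 965 bases before the last of them. The hexamer on its own (AGAACA or TGTTCT), which is part of the repeat, was in 4 of the 13 windows and in 16.1% of all windows. Of these 4 windows, 3 belong to *Sgk1*, which has 6 start sites, and the other to *Tsc22d3*. By gene, 18.2% of all genes had the hexamer in a window. The windows below are shown because they hold the repeat (*Sgk1*), hold a hexamer in another member that is known as a steroid target (*Tsc22d3*), or lie upstream of subunit genes that are neighbours on chromosome 7 and changed unequally (*Scnn1g* and *Scnn1b*). Matches to the hexamer or the repeat on either strand are in capitals.
Sgk1, chr10:21993640-21993889, plus strand: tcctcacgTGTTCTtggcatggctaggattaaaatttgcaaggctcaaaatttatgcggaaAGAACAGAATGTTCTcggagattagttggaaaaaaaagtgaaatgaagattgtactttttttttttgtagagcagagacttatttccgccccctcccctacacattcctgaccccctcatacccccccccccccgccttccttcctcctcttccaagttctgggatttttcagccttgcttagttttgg
Tsc22d3, chrX:140600523-140600772, minus strand: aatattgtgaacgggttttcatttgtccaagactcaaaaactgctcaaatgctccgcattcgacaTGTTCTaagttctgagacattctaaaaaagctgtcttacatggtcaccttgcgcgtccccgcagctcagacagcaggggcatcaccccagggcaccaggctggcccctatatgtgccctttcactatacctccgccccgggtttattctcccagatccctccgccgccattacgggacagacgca
Scnn1g, chr7:121734229-121734478, plus strand: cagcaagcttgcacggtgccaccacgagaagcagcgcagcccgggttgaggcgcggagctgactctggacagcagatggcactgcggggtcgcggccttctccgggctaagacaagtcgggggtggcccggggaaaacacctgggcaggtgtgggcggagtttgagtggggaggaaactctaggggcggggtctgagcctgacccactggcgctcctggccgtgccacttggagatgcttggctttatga
Scnn1b, chr7:121864788-121865037, plus strand: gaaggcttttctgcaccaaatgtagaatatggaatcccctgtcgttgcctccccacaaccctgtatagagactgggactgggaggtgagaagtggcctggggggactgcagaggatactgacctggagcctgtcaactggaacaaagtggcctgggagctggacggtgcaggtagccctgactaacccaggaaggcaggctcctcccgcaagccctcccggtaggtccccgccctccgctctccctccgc
These matches describe letters in the sequence, and binding was not measured.

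After background correction, quantile normalization and a log2 transform of the scanned intensities, 12914 probes that rose above background in 4 or more mice were compared between genotypes with limma. A probe was called at an adjusted p under 0.05 over all of these probes (Benjamini-Hochberg). Levels below are normalized log2 intensities, and a positive log2 fold change means a higher level in homozygous mutants. A level is specific to its probe, so levels of different probes were not compared as amounts. Between the channel subunits, only the change in their difference between genotypes was tested. Mice that differ in a tubule segment's share of the kidney cannot be told apart from mice that differ in RNA per cell, since RNA was measured in kidney tissue and not in separate cell types.

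The set split in direction. Of the 8 genes, judged by the brightest probe, *Scnn1a*, *Scnn1b* and *Fxyd4* were called higher in mutant mice, *Hsd11b2* and *Sgk1* were called lower, and *Scnn1g*, *Nedd4l* and *Tsc22d3* were not called. Over all genes tested, 8.39% were called higher and 7.86% lower. Their log2 fold changes had a median of 0.08, beside 0.03 over all genes. By probe, 4 of the 10 were called higher and 3 lower, where 7.83% and 8.9% of all probes tested were (16.7% in either direction). On 7 of the 10 probes all 4 mutant mice lay on 1 side of all 4 wild type mice, 4 times above and 3 times below. Of all probes tested, 23.8% did so (12% above and 11.8% below), and 24.5% of all genes by the brightest probe. SAM, the test named in the study's methods, passed 7 of the 10 probes at its FDR threshold (9.29% of all probes) and none with its fold threshold added (0.911%). These SAM shares are over all 25697 probes, many of them below background, whereas the limma shares are over the 12914 tested. The members were chosen with results of these arrays known, so these counts describe them and do not test them. Within genotypes, mutant replicate 3 was the highest mutant mouse on 6 of the 10 probes, and wild type replicate 3 the highest wild type mouse on 7.

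**Figure D1:**
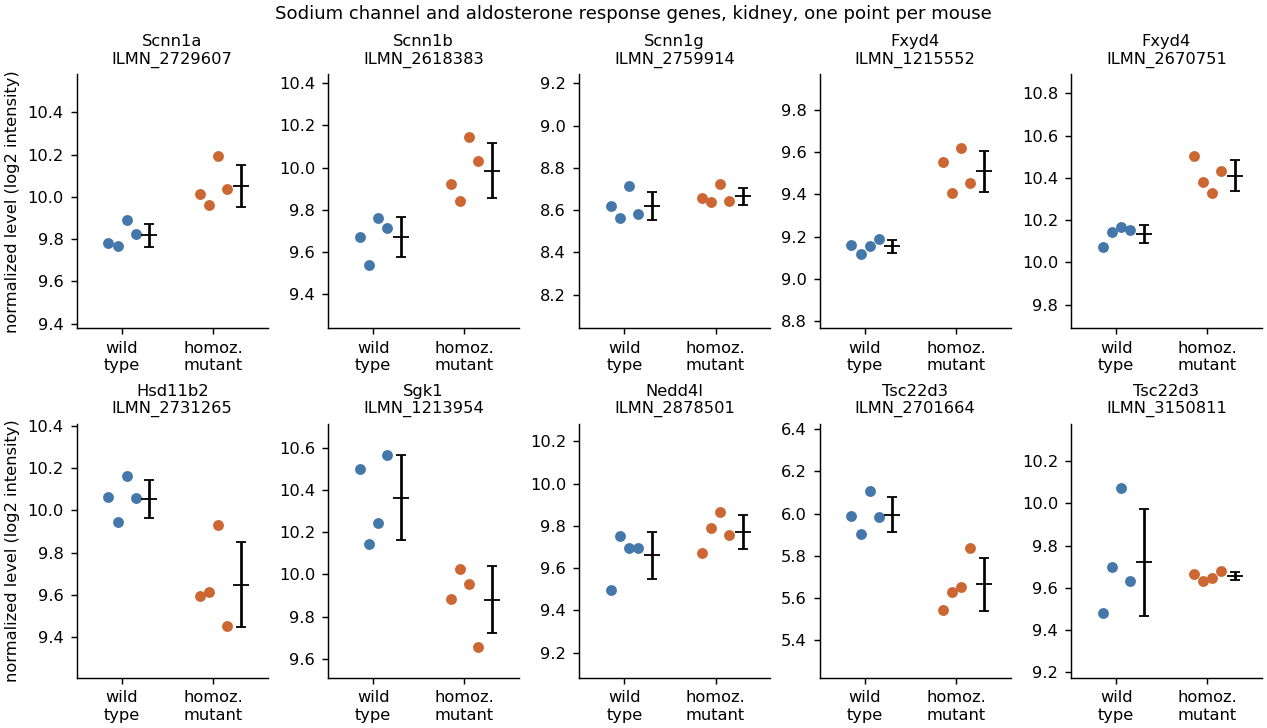
Normalized level (log2 intensity) of each probe of the 8 measured genes. Each point is 1 mouse (blue, wild type; orange, homozygous mutant), the black bar is the mean with 1 SD, and every panel spans the same width. The mutant points lie above all wild type points for Scnn1a, Scnn1b and both Fxyd4 probes, and below them for Hsd11b2, Sgk1 and the dimmer Tsc22d3 probe.

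*Scnn1b*, the beta subunit gene, was at 9.67, 9.54, 9.76 and 9.72 in wild type mice and at 9.93, 9.84, 10.14 and 10.03 in mutant mice. The lowest mutant mouse lay above the highest wild type mouse. The means were 9.67 ± 0.10 (SD, n = 4) and 9.99 ± 0.13 (SD, n = 4), which is 1.24-fold, or 0.31 in log2 (SE 0.08, adjusted p = 0.0288 from limma). The call was lost without wild type replicate 1 or 2 or mutant replicate 3 or 4, where the log2 fold change was 0.26 to 0.31. *Scnn1a* encodes the alpha subunit, without which the channel hardly reaches the surface. It was at 9.78, 9.77, 9.89 and 9.83 in wild type mice and at 10.01, 9.96, 10.19 and 10.04 in mutant mice, again with no overlap. Its log2 fold change was 0.23 (SE 0.07, adjusted p = 0.0403), or 1.18-fold. This call was the least secure of the set: it was lost without any one of the 8 mice (log2 fold change 0.19 to 0.26 in those fits) and with arrays scaled to a common median (0.18, adjusted p = 0.202).

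*Scnn1g*, the gamma subunit gene, did not follow the others. It was at 8.62, 8.56, 8.72 and 8.58 in wild type mice and at 8.66, 8.64, 8.72 and 8.64 in mutant mice, and the groups overlapped. The log2 fold change was 0.05 (SE 0.06, 95% interval -0.09 to 0.18, adjusted p = 0.617). The difference between subunits was tested within each array, where a constant shift of a whole array on the log2 scale cancels. An effect of quantile normalization that depends on the level does not cancel there. *Scnn1g* fell relative to *Scnn1a* by 0.19 on the log2 scale, and *Scnn1b* rose relative to *Scnn1g* by 0.27, each with p = 0.0286 in a two-sided exact permutation test over the 8 arrays (adjusted p = 0.0429 over 3 pairs). This is the smallest p that 4 against 4 mice allow. *Scnn1b* against *Scnn1a* differed by 0.08 (exact permutation p = 0.0857, adjusted p = 0.0857). The 3 pairs are not independent, since the change of any pair follows from the changes of the others. The subunits were also chosen with results of these arrays known, so these p-values describe the difference and are no independent test of it. *Scnn1g* and *Scnn1b* lie on the same strand of chromosome 7, at 121734420 to 121768482 and 121865038 to 121918728 (GRCm38.p6), with 96555 bases between them, and *Scnn1a* lies on chromosome 6 at 125314271 to 125344943.

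The calls of the alpha and beta subunits, like that of the brighter *Fxyd4* probe, depended on how the arrays were brought to 1 scale. As scanned, *Scnn1a* was at 1011 to 1089 in the wild type and 995 to 1282 in mutant mice, and *Scnn1b* at 938 to 996 and 925 to 1242, so both overlapped before normalization. The median scanned intensity of an array was 133.2 to 138.8 in the wild type and 127.5 to 134.7 in mutant mice. With median scaling instead of quantiles, *Scnn1b* had a log2 fold change of 0.26 (adjusted p = 0.0947) and *Scnn1g* of -0.03, and the split of all calls went from 1011 higher and 1149 lower to 241 higher and 1588 lower.

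The genes whose profiles were most like those of the subunits over the 8 arrays, by the root mean square difference of centred log2 levels, were *Mcph1*, *Slc6a13* and *Dnajb2* for *Scnn1a* (0.03, 0.03 and 0.04), and *Gja5*, *Ppargc1b* and *Trem2* for *Scnn1b* (0.04, 0.05 and 0.05). All 6 were called higher. For *Scnn1g* they were *Pink1*, *Eif2b5* and *Ass1* (0.02, 0.03 and 0.03), none of them called. The genotype difference is part of these profiles, so such calls follow from how the genes were chosen. The median difference over all other named probes tested was 0.19, 0.22 and 0.15 for the alpha, beta and gamma subunit.

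*Fxyd4* encodes CHIF, a small membrane protein of the collecting duct that raises the affinity of the sodium pump for sodium. Its brighter probe (ILMN_2670751) was at 10.08 to 10.17 in wild type mice and at 10.50, 10.38, 10.33 and 10.43 in mutant mice. Its dimmer probe (ILMN_1215552) was at 9.12 to 9.19 in wild type mice and at 9.56, 9.41, 9.62 and 9.46 in mutant mice. On both probes, the gap between the genotypes was wider than the range of the wild type mice after normalization. As scanned the genotypes overlapped on both, at 1217 to 1361 and 1297 to 1470 on the brighter probe and at 665 to 731 and 706 to 901 on the dimmer one. The log2 fold changes were 0.28 (SE 0.06, adjusted p = 0.0168) and 0.35 (SE 0.06, adjusted p = 0.00901), or 1.21-fold and 1.28-fold. The dimmer probe was the one call among the members that held in all 15 alternative fits, and the brighter one was lost with median scaling (0.23, adjusted p = 0.08).

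*Sgk1*, the kinase gene whose window above holds the perfect repeat, fell in the mutant kidneys. It was at 10.50, 10.14, 10.24 and 10.57 in wild type mice and at 9.88, 10.02, 9.95 and 9.66 in mutant mice. The groups did not overlap, although replicate 2 of either genotype came close to the other group. The means were 10.36 ± 0.20 (SD, n = 4) and 9.88 ± 0.16 (SD, n = 4), which is 0.715-fold, or -0.48 in log2 (SE 0.11, adjusted p = 0.0205). The groups were separate as scanned too, at 1304 to 1673 and 899 to 1098. The call was lost without wild type replicate 1 (-0.44, adjusted p = 0.0562), and it held with median scaling (-0.54, adjusted p = 0.00402).

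*Nedd4l*, the ubiquitin ligase gene on which SGK1 acts, was at 9.50, 9.75, 9.70 and 9.69 in wild type mice and at 9.67, 9.79, 9.87 and 9.76 in mutant mice. The groups overlapped, and the log2 fold change was 0.11 (SE 0.07, 95% interval -0.05 to 0.28, adjusted p = 0.309). Only wild type replicate 1 lay below all mutant mice.

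*Hsd11b2*, the gene of the enzyme that inactivates corticosterone in aldosterone target cells, fell as well. It was at 10.06, 9.94, 10.16 and 10.06 in wild type mice and at 9.60, 9.61, 9.93 and 9.45 in mutant mice. Mutant replicate 3 lay just under the lowest wild type mouse, and the other mutant mice were well below. The means were 10.06 ± 0.09 (SD, n = 4) and 9.65 ± 0.20 (SD, n = 4), which is 0.754-fold, or -0.41 in log2 (SE 0.10, adjusted p = 0.0242). As scanned the groups were apart, at 1207 to 1237 and 797 to 1082. The call was lost without wild type replicate 1 or 3 or mutant replicate 1, 2 or 4, with log2 fold changes of -0.34 to -0.41, and without mutant replicate 3 the fold change was -0.50.

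*Tsc22d3*, which encodes the glucocorticoid-induced leucine zipper GILZ, gave different answers on its probes, which the platform's annotation assigns to different RefSeq transcripts of the gene. The brighter probe (ILMN_3150811) was at 9.48, 9.70, 10.07 and 9.63 in wild type mice and at 9.66, 9.63, 9.65 and 9.68 in mutant mice. The wild type mice spread widely on both sides of the closely grouped mutant mice (SD 0.25 and 0.02), and the log2 fold change was -0.06 (SE 0.11, 95% interval -0.31 to 0.18, adjusted p = 0.714). Without wild type replicate 3 it was 0.05. The dimmer probe (ILMN_2701664) was at 5.99, 5.90, 6.11 and 5.98 in wild type mice and at 5.54, 5.63, 5.65 and 5.84 in mutant mice, with no overlap. Its log2 fold change was -0.33 (SE 0.08, adjusted p = 0.0211). This probe was close to background, at 172 to 174 as scanned in the wild type and 145 to 158 in mutant mice, and its log2 fold change ranged from -0.12 without background correction, where the call was lost (adjusted p = 0.0506), to -0.47 on the authors' intensities. The call was also lost without wild type replicate 1 or 3 or mutant replicate 2 (adjusted p = 0.05001 to 0.0519).

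Of the 60 genes in 5 lists around these members, 54 had a probe and 49 were above background on enough arrays to be tested. Of the 49, 3 were called higher and 3 lower, beside 16.2% of all genes called in either direction. Their median log2 fold change was -0.02. The lists, like the members, were drawn up with earlier results of these arrays known.

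**Figure D2:**
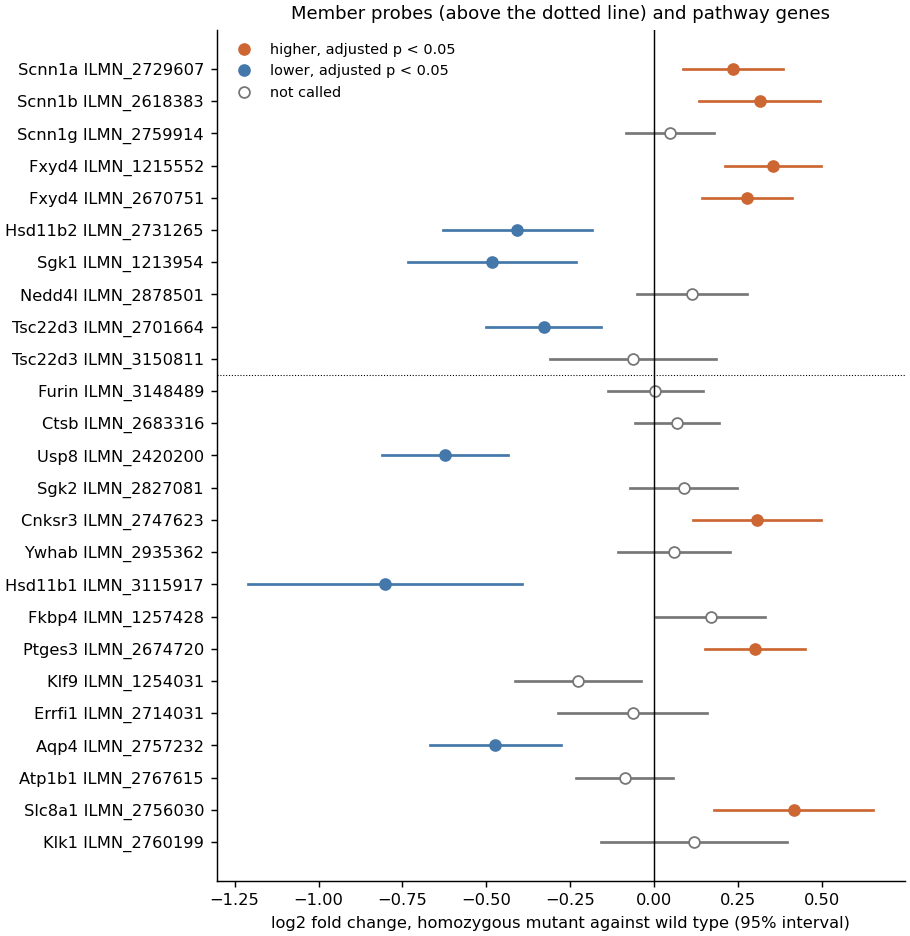
Log2 fold change of homozygous mutant against wild type mice with its 95% interval for the 10 member probes (above the dotted line) and the pathway genes chosen by a fixed rule (below it). Filled orange and blue points were called higher and lower by limma at an adjusted p under 0.05, and open grey points were not called; Hsd11b1, at -0.80, has the lowest value.

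The widest change in these lists was that of *Hsd11b1*, which encodes the enzyme that regenerates active corticosterone, the reverse of the *Hsd11b2* reaction. Its brightest probe was at 12.02, 11.74, 11.82 and 11.48 in wild type mice and at 11.31, 11.23, 10.46 and 10.87 in mutant mice. The genotypes did not overlap, and mutant replicate 3 was the lowest mouse. The log2 fold change was -0.80 (SE 0.18, adjusted p = 0.0191), or 0.573-fold. Of its other probes, ILMN_1214998 and ILMN_2774160 had -0.79 and -0.84 and were called too, and the dimmest, ILMN_3041149, had -0.30 (adjusted p = 0.075). Without wild type replicate 1 the brightest probe had -0.72 (adjusted p = 0.0536).

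Of 8 tested genes for corticosteroid receptor partners and ligand enzymes, 1 was called higher and 1, *Hsd11b1*, lower, with a median of -0.07. *Ptges3*, the gene of the HSP90 co-chaperone p23, was at 9.09, 8.98, 9.18 and 9.16 in wild type mice and at 9.35, 9.45, 9.47 and 9.34 in mutant mice, which do not overlap. The difference of 0.30 (SE 0.07, adjusted p = 0.0183) was not called with median scaling (0.24, adjusted p = 0.0638). *Fkbp4*, an immunophilin gene of the same receptor complex, had 0.17 (SE 0.07, adjusted p = 0.137). The glucocorticoid receptor gene *Nr3c1* was above background in 2 wild type and 2 mutant mice and had -0.15 (SE 0.12, adjusted p = 0.393).

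In the list of genes known to be induced by aldosterone or glucocorticoids, none of 10 tested was called by limma or passed SAM's FDR threshold. The median of the list was -0.08. Some steroid-induced genes are counted elsewhere and not in this list. Of these, *Sgk1* was called lower (-0.48), *Cnksr3* was called higher (0.31), and *Tsc22d3* was called lower on its dimmer probe only. An unadjusted p under 0.05 was seen for 3 of the 10, beside 34% of all genes tested. The clock gene *Per1*, an early aldosterone target in collecting duct cells, was at 7.75, 8.06, 8.34 and 8.01 in wild type mice and at 7.15, 7.45, 8.02 and 7.47 in mutant mice. Mutant replicate 3 lay among the wild type mice and the others below them. The log2 fold change was -0.52 (SE 0.18, 95% interval -0.91 to -0.12, adjusted p = 0.0716), and it passed the threshold in 5 of 15 alternative fits, without mutant replicate 3 among them. *Fkbp5*, a classical glucocorticoid target, had -0.24 (SE 0.09, adjusted p = 0.0852) and *Klf9*, a transcription factor gene induced by corticosteroids, -0.23 (SE 0.08, adjusted p = 0.0894). *Errfi1*, the brightest of the list, had -0.06 (SE 0.10, adjusted p = 0.678). The other tested genes of the list went in both directions. *Ddit4*, *Mt2* and *Ndrg2* had 0.28, 0.12 and 0.06, and *Dusp1*, *Edn1* and *Pdk4* had -0.02, -0.09 and -0.29.

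**Figure D3:**
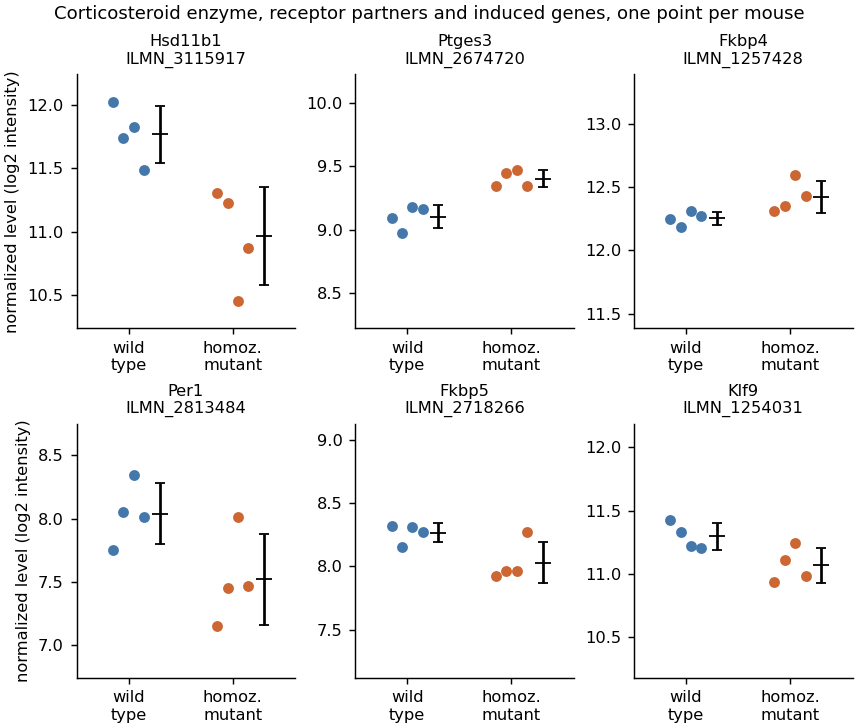
Normalized level (log2 intensity, all panels of the same width) of the brightest probe of Hsd11b1, of receptor partner genes and of steroid-induced genes. The steroid-induced genes shown are those with an unadjusted limma p under 0.05. Each point is 1 mouse (blue, wild type; orange, homozygous mutant) and the black bar is the mean with 1 SD. Hsd11b1 is lower and Ptges3 higher in all mutant mice, whereas the genotypes overlap for Per1, Fkbp5 and Klf9.

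Among 15 tested genes for kinases, ubiquitin enzymes and scaffolds that act on the channel, 1 was called higher and 1 lower (median 0.06). *Usp8*, which encodes a deubiquitinase that in cultured cells spares the channel from degradation, was at 8.36, 8.14, 8.22 and 7.96 in wild type mice and at 7.49, 7.53, 7.61 and 7.56 in mutant mice. The log2 fold change was -0.62 (SE 0.08, adjusted p = 0.00359), the groups were apart, and the call held in all 15 alternative fits. *Cnksr3*, a scaffold gene induced by aldosterone, was dim, at 5.70 ± 0.04 (SD, n = 4) in the wild type and 6.01 ± 0.17 (SD, n = 4) in mutant mice. Its log2 fold change of 0.31 (SE 0.09, adjusted p = 0.0384) lost its call in 11 of 15 alternative fits, among them those without any one mouse other than mutant replicate 3 (0.24 to 0.33). It ranged from 0.11 without background correction (adjusted p = 0.0745) to 0.42 on the authors' intensities (adjusted p = 0.0365). The kinase gene *Sgk3*, a relative of *Sgk1*, had -0.09 on its brightest probe (adjusted p = 0.355), whereas ILMN_1214762, ILMN_2665359 and ILMN_2665364 had -0.43, -0.38 and -0.68 and were called. *Sgk2*, another relative, had 0.09 (SE 0.07, adjusted p = 0.411), and *Ywhab*, a gene of the 14-3-3 proteins that hold phosphorylated NEDD4L, 0.06 on its brightest probe (SE 0.07, adjusted p = 0.607), whereas its dimmer probe ILMN_2490479 had 0.18 and was called (adjusted p = 0.0487).

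None of 8 genes for proteases and inhibitors that act on the channel was called by limma or passed SAM's FDR threshold, and their median was -0.03. An unadjusted p under 0.05 was seen for 1 of the 8, the matriptase gene *St14*, beside 34% of all genes. Its probes went in opposite directions and neither was called by limma. The brightest had -0.21 (adjusted p = 0.0756), and the dimmer ILMN_1255342 had 0.26 (adjusted p = 0.0545). In the lists of kinases, receptor partners and principal cell genes an unadjusted p under 0.05 was seen for 5 of 15, 4 of 8 and 3 of 8. *Furin*, whose product cuts the alpha and gamma subunits, had 0.00 (SE 0.06, adjusted p = 0.981), and *Ctsb*, the cathepsin B gene, 0.07 (SE 0.06, adjusted p = 0.42).

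Other genes of principal cells and the connecting tubule did not share 1 direction. Of 8 tested, 1 was called higher and 1 lower, and the median was 0.14. The water channel gene *Aqp4* was at 8.45, 8.31, 8.11 and 8.43 in wild type mice and at 7.80, 7.99, 7.85 and 7.77 in mutant mice, with no overlap. The difference of -0.47 (SE 0.09, adjusted p = 0.00961) held in all 15 alternative fits. *Slc8a1*, the sodium-calcium exchanger gene, had 0.41 (SE 0.11, adjusted p = 0.0285), which was lost without wild type replicate 1, 2 or 3 or mutant replicate 1 or 3 (0.37 to 0.40). *Aqp2*, the water channel gene that vasopressin regulates in principal cells, had 0.17 (SE 0.09, adjusted p = 0.237). *Atp1b1*, the beta subunit gene of the sodium pump, had -0.09 (SE 0.07, adjusted p = 0.363), and the tissue kallikrein gene *Klk1* 0.12 (SE 0.12, adjusted p = 0.53). *Avpr2*, the vasopressin receptor gene, was above background on no array.

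Markers of several other cell types moved with the genotype, and their part in the results above was not tested. Over all genes tested, 8.39% were called higher and 7.86% lower. The thick ascending limb markers include *Slc12a1* and *Umod*, which the paper had already reported as lower in these mutant kidneys. Of 4 thick ascending limb markers, all 4 were called lower (median -0.61), and their summed intensity was 13600 to 16150 in the wild type and 8201 to 10750 in mutant mice. Of 4 tested urothelial markers, all 4 were called higher (median 0.72), with sums of 193 to 235 and 285 to 389, while *Krt5* was above background on no array. Of 3 markers of the distal convoluted tubule, 2 were called higher (median 0.30, sums of 6548 to 7699 and 7911 to 9098), and of 5 tested markers of intercalated cells, 1 was (median 0.20). Of 4 proximal tubule markers, 1 was called lower (median 0.03). Of 4 adipocyte markers, none was above background on enough arrays to be tested. Among them, *Adipoq* was at 6.47 in mutant replicate 3 and at 4.56, 4.59 and 5.19 in the other mutant mice. The podocyte marker *Wt1*, the 1 of its list tested, was called lower (-0.46, adjusted p = 0.0179). Of 4 endothelial markers, *Cdh5* was called lower (-0.37, adjusted p = 0.0211), the median was -0.31, and the sums were 1884 to 2475 in wild type and 1589 to 1904 in mutant mice. Of the 6 markers of the adrenal cortex, which makes aldosterone and lies on the kidney, *Cyp11b1*, *Cyp21a1*, *Hsd3b1*, *Star* and *Nr5a1* were above background on no array. The brighter *Cyp11b2* probe was near background, with a wild type mean of 5.12, and passed detection in 3 wild type and 4 mutant mice. It had a log2 fold change of 0.13 (limma adjusted p = 0.619), and the other *Cyp11b2* probe was above background on no array.

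**Figure D4:**
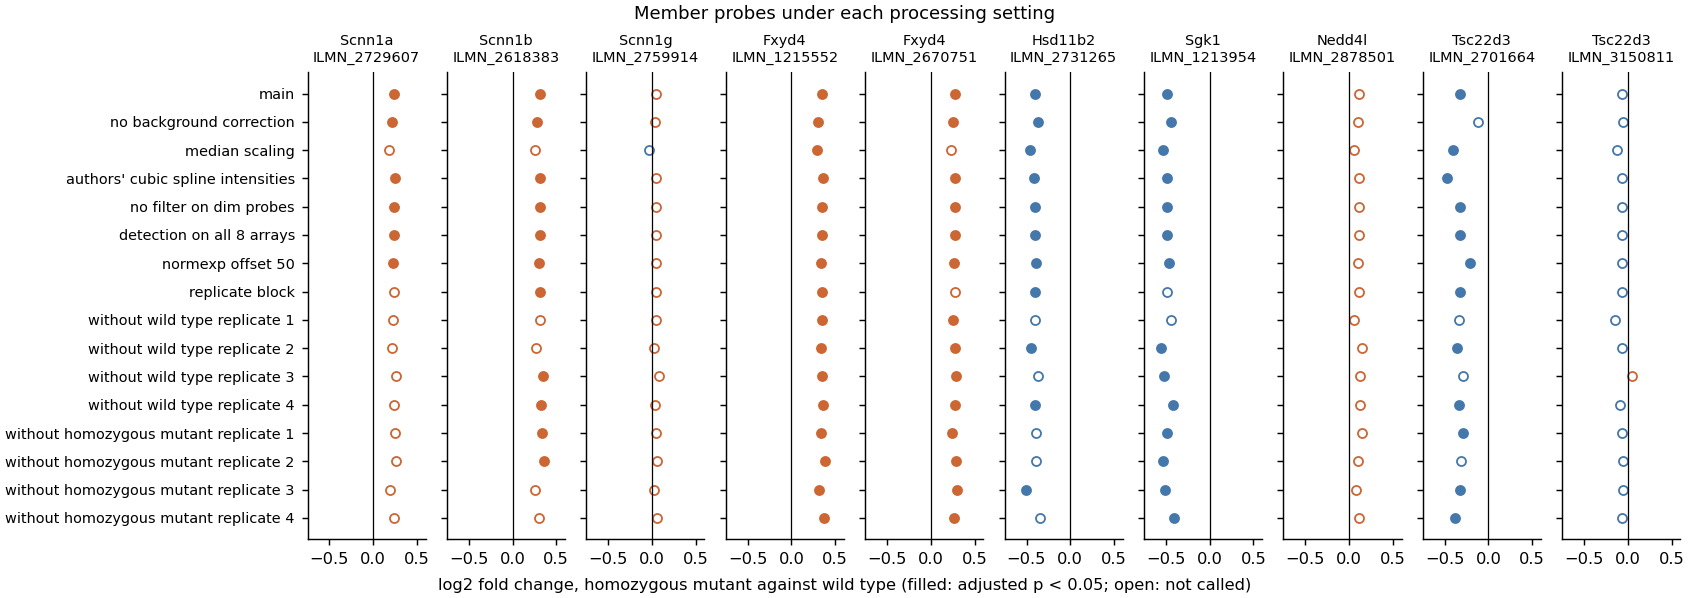
Log2 fold change of each member probe, homozygous mutant against wild type mice, under the main setting (top row) and 15 alternatives. Filled points were called at an adjusted p under 0.05 and open points were not (orange above 0, blue below 0). Only the dimmer Fxyd4 probe is filled in every row, and no called probe crosses 0.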

How the data were processed

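The authors deposited, for each probe and array, the scanned bead intensity and a detection p-value, and separately a background-subtracted intensity normalized by cubic spline with GenomeStudio 2011.1; both are linear. Per the file headers, a detection p-value stands beside each scanned intensity; it compares the probe with the negative controls. Genes were named from the platform's annotation, updated through gene numbers to GRCm38.p6. Scanned intensities were processed with neqc (normexp from the detection p-values, offset 16, quantile normalization, log2) in limma 3.58.1 and R 4.3.3. Detection (p under 0.05) was required on 4 of 8 arrays, and lmFit and eBayes were run with genotype as the only term. SAM, which the methods name, was written from its description and run on the authors' intensities (floor 16, all 70 arrangements, median FDR under 6%, fold change above 1.6). Genes were judged by the brightest probe, averaged over the 8 arrays. Scripts were tested on simulated data. Precision is limited by the number of arrays, with a median SE of 0.0839 for a log2 fold change. The labels name no batch, and each sample is a separate mouse.

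The members and lists were chosen with earlier results of these data known. Besides the members, the rule named the pathway genes called and the 2 brightest of each list. *Per1*, *Fkbp5*, *Sgk3*, *Nr3c1*, *St14*, *Aqp2*, *Avpr2*, the other steroid-induced genes outside that rule and the markers were added after their values were seen. Alternatives changed the background correction, scaling, filter, offset, block, probe rule and test, or left out 1 mouse.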

Additional observations from a re-analysis of the deposited data

Results flagged for a closer look

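In 4 of 56 groups of 4 mice checked, 1 mouse lay apart from the other 3 by a larger share of the group's range than Dixon's 95% critical value; chance gives about 1 in 20. None was a member of the set. For *Fkbp5*, mutant replicate 4 was at 8.27 and the next mutant mouse at 7.96 (gap 0.897 of the range); without it the log2 fold change was -0.32 and was called (adjusted p = 0.0242). For *Cnksr3*, wild type replicate 3 was the lowest, at 5.65 beside 5.72 (0.831). For *Ywhab*, mutant replicate 3 was the highest, at 11.23 beside 11.12 (0.978). For *Errfi1*, mutant replicate 2 was the highest, at 13.37 beside 13.06 (0.836).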

How the results depend on the processing

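The 7 member probes called kept their direction in all 105 fits over 15 alternatives and lost their call in 28 of them, and no other member probe gained one. Main counts were 3 member genes higher and 2 lower, 3 pathway genes higher and 3 lower, and 2160 probes in all. With median scaling (14.2% of probes called), 0 member genes were higher, and 1 pathway gene was higher and 5 lower. Without background correction 8 pathway genes were lower, and with an offset of 50, 5 were. With the replicate number as a block, 1 member gene was higher and 1 lower, 1 pathway gene was higher, and 1352 probes were called in all (10.5%); *Scnn1a*, *Sgk1* and the brighter *Fxyd4* probe lost their calls. The numbers are not known to pair the mice: deviations of same-numbered mice correlated at -0.096 to 0.13, and only the mice numbered 1 correlated best with each other. With 1 mouse left out, 1 to 2 member genes were higher and 0 to 2 lower, 1 to 2 pathway genes were higher and 2 to 4 lower, and 1134 to 1681 probes were called. The fewest calls, 1134 in all and 0 member genes lower, came without wild type replicate 1. SAM, as written here and at the methods' thresholds, called 0 member genes higher and 0 lower, 0 pathway genes higher and 1 lower. It called 234 probes in all (0.911%). The paper lists *Usp8* and *Sgk3* among its regulated genes. On the brightest probes used for this count, *Usp8* passed the FDR threshold without the fold threshold, and *Sgk3* passed neither. At its FDR threshold 7 of the 10 member probes passed, as 9.29% of all 25697 probes did, but none had a fold change above 1.6. Changes near background, such as that of the dimmer *Tsc22d3* probe, are limited by signal. The cause of these shifts was not tested.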
